A study of Homo sapiens with 12 samples.

Results

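The 10 transcription factors described here, PAX5, EBF1, POU2AF1, POU2F2, SPIB, SPI1, IRF4, IRF8, BCL6 and BACH2, are known for setting up and keeping B cell identity. Every probe that the array annotation gives to one of these symbols was taken, on all 12 arrays, which gave 13 of the 48105 probes with complete values. BACH2 had 3 probes, SPI1 had 2 and each other gene had 1. The study used Raji, an established cell line from a Burkitt lymphoma, a tumour of B cells, transduced it with short hairpin RNAs, selected it in puromycin for 48 h and took total RNA on day 3. Its title names the control of CD20 as the question, and CD20 is the product of MS4A1.

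All 12 arrays came from this 1 cell line, transduced and selected in the same way. The first label set, with no replicate numbers, held 6 arrays: shCREM hairpins A and B against CREM, a transcription factor that answers to cAMP, shMS4A1 hairpins A, B and C against MS4A1, and 1 array of the non-targeting hairpin shNTC (replicate 3 here). The second label set, with replicate numbers, held the other 6: shMBD2_A and shMBD2_C, each on 2 arrays, against MBD2, a reader of methylated DNA, and shNTC replicates 1 and 2. Each knockdown was compared with shNTC of its own set, and shCREM with shMS4A1 inside set 1. Each shCREM and shMS4A1 array is a different hairpin, so their spread includes differences between hairpins. Nothing in the labels says that the arrays are separate cultures, and the p-values therefore rest on array-to-array spread that may be technical.

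As background, EBF1 and PAX5 act at the start of the B lineage, where they switch on genes of the B cell receptor and, in PAX5's case, shut off genes of other lineages. The octamer factors POU2F2 (Oct-2) and its coactivator POU2AF1 (OCA-B) act on immunoglobulin promoters, and the ETS factors SPI1 (PU.1) and SPIB bind DNA with IRF4 or IRF8 at shared sites. BCL6 and BACH2 are repressors of mature and germinal centre B cells that hold back PRDM1, the factor that starts plasma cell differentiation. Burkitt lymphoma derives from germinal centre B cells, in which BCL6 is high and IRF4 is low.

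Sequence around the gene starts shows which members carry letters known to be bound by the targeted factor CREM or by BCL6 itself. RefSeq windows (GRCh38.p14) of 300 bases, 250 before and 50 after an annotated start, matched 8 of the 10 members by symbol, all but POU2AF1 and SPI1. The palindrome TGACGTCA, the cAMP response element (CRE) that CREM and its relatives bind, stood in 1 member's window, that of BACH2, and in 1.85% of 35116 windows. Its half-site TGACG, searched on both strands, was likewise found in BACH2 alone among the members, both matches lying inside the palindrome, and in 24.6% of all windows. TTCNNNGAA, the element bound by STAT factors and close to the site of BCL6, matched 4 times in a BCL6 window and in no other member, against 7.66% of all windows with at least 1 match. The octamer ATGCAAAT (1.77% of windows) and the interferon response element (3.57%) matched none of the member windows, and the ETS core GAGGAA (27.9%) matched those of PAX5, POU2F2 and IRF4. The windows of BACH2 (chr6:90296794-90297093, minus strand) and of BCL6 (chr3:187745419-187745718, minus strand) are shown because they alone hold these elements, 5′ to 3′, with matches to TGACG and TTCNNNGAA on either strand in capitals.
BACH2: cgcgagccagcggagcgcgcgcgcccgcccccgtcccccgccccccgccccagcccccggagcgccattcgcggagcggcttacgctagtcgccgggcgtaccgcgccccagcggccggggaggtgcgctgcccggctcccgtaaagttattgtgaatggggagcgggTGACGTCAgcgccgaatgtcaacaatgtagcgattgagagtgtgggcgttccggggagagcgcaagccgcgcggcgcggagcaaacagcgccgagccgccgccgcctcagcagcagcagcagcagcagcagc
BCL6: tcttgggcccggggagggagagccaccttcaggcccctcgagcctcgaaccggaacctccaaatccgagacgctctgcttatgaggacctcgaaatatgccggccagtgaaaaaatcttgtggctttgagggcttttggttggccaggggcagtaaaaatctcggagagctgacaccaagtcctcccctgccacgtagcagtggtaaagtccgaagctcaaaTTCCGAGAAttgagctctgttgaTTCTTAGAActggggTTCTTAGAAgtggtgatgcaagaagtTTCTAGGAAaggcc
The BACH2 window held 45 CpG pairs, a number reached by 3.48% of windows, against a median of 14. The 2 IRF8 windows, which held no match, lie at starts inside the gene and not at its first start, which was not searched. A match is a run of letters and not a measured binding site.

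The targeted genes were checked once. MBD2 (ILMN_1750395) was at 5.38 to 5.92 on the shMBD2 arrays and 7.22 and 7.61 on shNTC of set 2, a log2 difference of -1.77 ± 0.24 (SE, adjusted p = 0.000892). MS4A1 (ILMN_2401714) was at 6.03 to 6.20 on the shMS4A1 arrays and 8.06 on shNTC replicate 3, a difference of -1.93 ± 0.31 (adjusted p = 0.0123). Its other probe detected on all 12 arrays, ILMN_1776939, differed by -1.17 ± 0.32 and did not pass (adjusted p = 0.273). The CREM probe was detected on neither shCREM array and on 4 of 12 arrays in all, so it checks the CREM label only weakly. It read 4.47 and 4.24 on shCREM and 5.10 on shNTC replicate 3, a difference of -0.74 ± 0.30 that was not called. On shMS4A1 it read 4.66, 4.48 and 4.62, also below that control. The shNTC replicates 1 and 2 of set 2 read 4.25 and 4.47, close to shCREM, so this probe does not show that CREM was reduced. Of B cell markers, 5 of 5 on the array (CD79A, CD79B, CD22, CD74 and MS4A1) were detected on 12 of 12 arrays. Of 7 T and NK cell markers and 7 myeloid markers, 0 were detected on all 12 arrays and 2 of each list were detected on none (CD3E and CD8A, MPO and S100A9), the others on some, with summed linear levels of 39.6 to 100 and of 41 to 89.5 per array. Of 7 epithelial and fibroblast markers, COL1A1 was detected on all 12 arrays and KRT8 on none, with sums of 52.6 to 151. The median raw signal per array ran from 99.2 to 104.9 for set 1 and from 76.9 to 86.8 for set 2, and 18652 to 20483 probes per array had a detection p under 0.05.

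Of the 13 member probes, 11 were detected on at least 2 arrays and were tested, and they cover 9 of the 10 genes. PAX5 is the gene left untested. Its single probe was not well above background on 11 arrays, at 4.22 to 4.60, and read 5.01 on shNTC replicate 2, the 1 array with detection. BACH2 probe ILMN_2058468 was detected on 0 of 12 arrays, ILMN_1670695 on 2 and ILMN_1659943 on 11. The other 9 probes, of EBF1, POU2AF1, POU2F2, SPIB, SPI1, IRF4, IRF8 and BCL6, were detected on 12 of 12. Levels throughout are log2 normalized intensities, which compare 1 probe across arrays and not different probes.

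**Figure D1:**
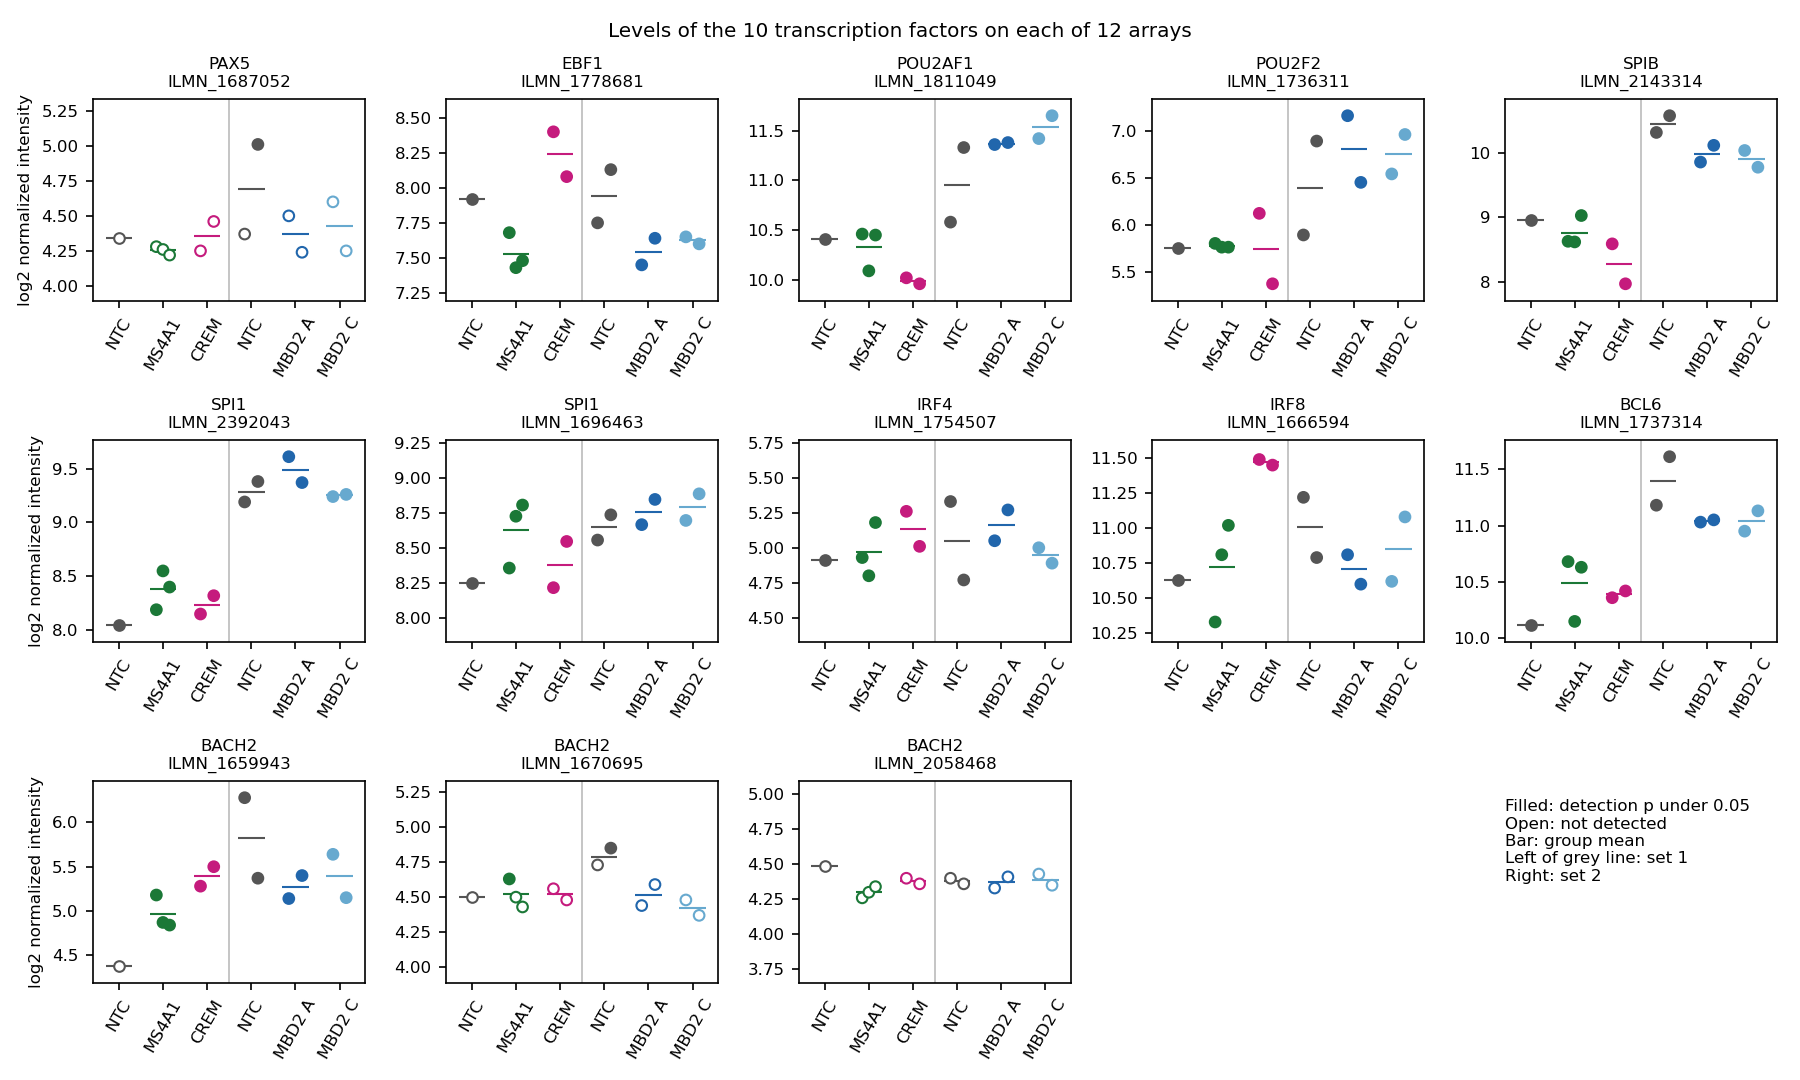
Log2 normalized intensity (vertical axes) of the 13 probes on each of 12 arrays, by group, with set 1 left and set 2 right of the grey line; filled points are detected, open points are not, and bars are group means. IRF8 is highest on both shCREM arrays (11.49 and 11.45), while SPIB, BCL6, POU2AF1 and SPI1 ILMN_2392043 separate the sets.

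In cells with the CREM hairpins, IRF8 was higher than in cells with the MS4A1 hairpins, and it was the 1 member called in the planned comparisons. Of the 11 member probes, 1 was called higher and 0 lower there, beside 4.09% of all 27789 tested probes called. EBF1 was next, at adjusted p = 0.0578. The groups did not overlap for 5 of the 11 probes, with EBF1, IRF8 and BACH2 ILMN_1659943 above and POU2AF1 and SPIB below, beside 32.3% of all probes. The median difference over member probes was -0.03, against 0.00 over all probes.

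Against the non-targeting control no member was called. In shMBD2, 0 of 11 probes passed (2.09% of all probes did), with 3 of 11 at an unadjusted p under 0.05, a level that 14.8% of all probes reached. There the groups did not overlap for 5 of 11 probes, POU2AF1 above and EBF1, SPIB, BCL6 and BACH2 ILMN_1670695 below, beside 25.5% of all probes. In shMS4A1, 0 of 11 passed (0.13% of all), with 0 at an unadjusted p under 0.05, and 6 of 11 had all 3 hairpins on 1 side of the single control array, beside 52.7% of all probes. In shCREM, 0 of 11 passed (0.0108% of all), with 3 at an unadjusted p under 0.05, and 8 of 11 had both hairpins on 1 side of that array, beside 66.1%. Between shMBD2_A and shMBD2_C, 0 of 11 passed, 0 had an unadjusted p under 0.05, and 0% of all probes passed, 727 of them having an unadjusted p under 0.05. All values come from 1 limma fit to the 12 arrays, and the comparisons of shMS4A1 and shCREM with shNTC share 1 control array. In RNA from a whole culture, fewer cells with a transcript and less of it per cell cannot be told apart.

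**Figure D2:**
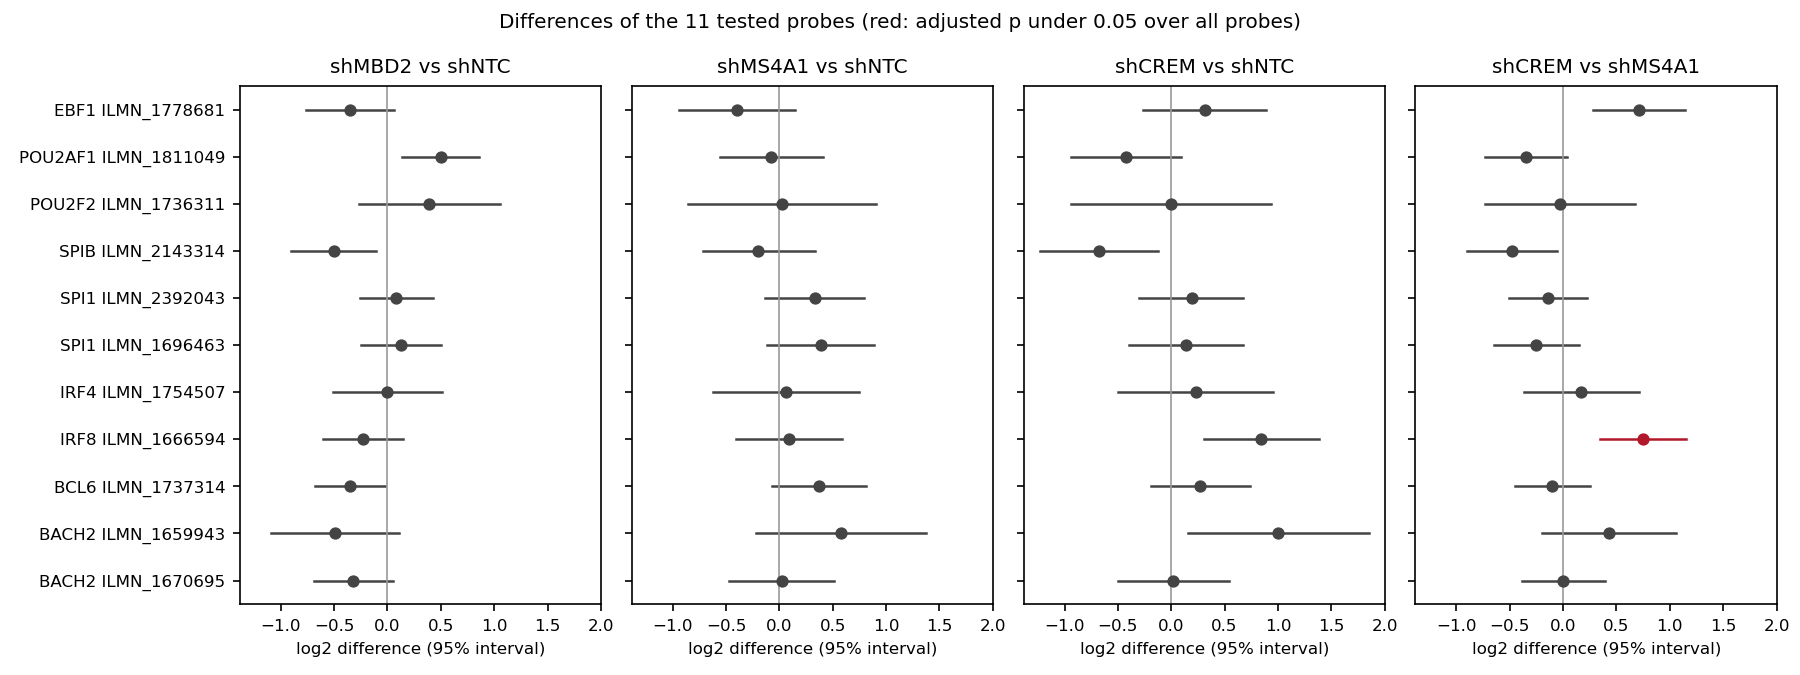
Log2 differences (horizontal axes) of the 11 tested probes in 4 comparisons, with 95% intervals from the limma fit; red marks an adjusted p under 0.05. IRF8 in shCREM against shMS4A1 (0.75, interval 0.35 to 1.15) is the single red point, and the EBF1 interval beside it runs from 0.28 to 1.14.

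IRF8 drives interferon-responsive and germinal centre genes and is the member called in the planned comparisons. It read 11.49 and 11.45 on shCREM hairpins A and B, and 10.33, 10.81 and 11.02 on shMS4A1 hairpins A, B and C. The shNTC array of that set read 10.63, so both shCREM arrays lay above every other array of the set and the shMS4A1 arrays lay on either side of the control. The difference between shCREM and shMS4A1 was 0.75 ± 0.19 (log2, SE, limma adjusted p = 0.03), a 1.68-fold higher level. Against shNTC replicate 3 the difference in shCREM was 0.84 ± 0.25 (adjusted p = 0.386) and in shMS4A1 0.09 ± 0.24 (adjusted p = 0.999). In set 2, IRF8 was 10.60 to 11.08 on the shMBD2 arrays and 11.22 and 10.79 on shNTC, ranges that overlapped, with a difference of -0.23 ± 0.18 (adjusted p = 0.627). The call between shCREM and shMS4A1 held in 14 of 22 alternatives, with adjusted p between 0.0228 and 0.142. It was lost without shCREM hairpin A (0.73, adjusted p = 0.142) or B (0.77, 0.0819), without shMS4A1 hairpin A (0.56, 0.125) or B (0.80, 0.0699), without shMBD2_A replicate 1 (0.75, 0.0505) or 2 (0.75, 0.0503), with no detection filter (0.75, 0.0546) and with no intensity trend (0.75, 0.131).

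IRF4, the relative of IRF8 that rises toward the plasma cell, stayed close to background. It was detected on all 12 arrays but read 4.80 to 5.26 across the 6 arrays of set 1 and 4.77 to 5.33 across set 2. Its differences were 0.17 ± 0.26 in shCREM against shMS4A1 (adjusted p = 0.828), 0.23 ± 0.35 in shCREM against shNTC (adjusted p = 0.962) and 0.00 ± 0.24 in shMBD2 against shNTC (adjusted p = 0.999). The 95% interval of the shMBD2 value ran from -0.51 to 0.51. Among the other interferon regulatory factors, 6 were tested. IRF9, a subunit of the interferon-activated complex ISGF3, was called higher in shCREM than in shMS4A1 by 1.16 ± 0.25 (adjusted p = 0.0129), 1 of 6 beside 5.44% of all 13702 tested genes. The IRF9 call held in 19 of 22 alternatives and was lost without shCREM hairpin A, shMS4A1 hairpin A or shMS4A1 hairpin C (highest adjusted p 0.0646). It read 8.76 and 8.77 on shCREM, 7.15, 8.13 and 7.52 on shMS4A1 and 8.30 on shNTC replicate 3. The other 5 did not pass, and the list's median there was 0.47 against 0.00 over all genes. In shMBD2, shMS4A1 and shCREM against shNTC, 0 of 6 passed, the smallest p-values belonging to IRF3 (0.53 ± 0.19) and IRF2 (-0.63 ± 0.29), IRF7 (adjusted p = 0.681) and IRF9 (-0.70 ± 0.32), and IRF1 (-0.72 ± 0.30) and IRF2 (0.84 ± 0.41) in turn.

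EBF1, which opens B lineage genes together with PAX5, lay on opposite sides of the control in the 2 knockdowns of set 1. It read 8.40 and 8.08 on shCREM, 7.68, 7.43 and 7.48 on shMS4A1, and 7.92 on shNTC replicate 3. Both shCREM arrays lay above the control and all 3 shMS4A1 arrays below it. The difference between shCREM and shMS4A1, 0.71 ± 0.20, had an adjusted p of 0.0578 and did not pass. It passed in 8 of 22 alternatives (adjusted p from 0.0323 to 0.3), among them the authors' processed values (0.53, adjusted p = 0.0399) and the fits without shCREM hairpin B (0.87, 0.0449), without shNTC replicate 1 (0.71, 0.0352) and without shNTC replicate 2 (0.71, 0.0362). Against shNTC the differences were 0.32 ± 0.27 in shCREM (adjusted p = 0.897) and -0.40 ± 0.26 in shMS4A1 (adjusted p = 0.999). In set 2, EBF1 was 7.45, 7.64, 7.65 and 7.60 on the shMBD2 arrays and 7.75 and 8.13 on shNTC, all 4 below both controls by as little as 0.10, a difference of -0.35 ± 0.19 (adjusted p = 0.432).

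Of 14 genes known, mostly from mouse, to be activated by PAX5 or EBF1, 12 were tested. In shCREM against shMS4A1, which holds no control array, 3 were called higher and 0 lower, beside 5.44% of the 13702 tested genes called. They were CD72, a B cell coreceptor (1.46 ± 0.31, adjusted p = 0.011), CD22, an inhibitory lectin (1.07 ± 0.27, 0.0306), and CD40, the receptor for T cell help (0.75 ± 0.19, 0.0288). The median over the 12 was 0.00, as over all genes, with 6 positive and 6 negative, and the count ran from 0 to 3 over 22 alternatives. CD72 was called in 20 of these, CD40 in 14 and CD22 in 13, and none of the 3 without shCREM hairpin A or without shMS4A1 hairpin C (highest adjusted p 0.198, 0.215 and 0.152). The CD40 call was also lost without shMS4A1 hairpin B or either shMBD2_C array, and that of CD22 without shCREM hairpin B, shMS4A1 hairpin A or B, or either shMBD2_A array. Processing mattered too: CD40 was not called with no detection filter, with no intensity trend or in a fit to set 1 alone. CD22 was not called at offset 50 or with no background correction before quantile normalization. CD22 read 6.71 and 7.05 on shCREM, 5.92, 5.62 and 5.90 on shMS4A1, and 6.25 on shNTC replicate 3. CD72 read 8.49 and 7.29 on shCREM, 6.19, 6.84 and 6.26 on shMS4A1, and 6.96 on that control. CD40 read 9.21 and 8.86 on shCREM, 8.55, 8.04 and 8.26 on shMS4A1, and 9.10 on that control. For CD40 the control thus lay between the shCREM arrays and above every shMS4A1 array. In shMBD2, CD79A, a chain of the B cell receptor, fell by 0.87 ± 0.13 on the log2 scale (adjusted p = 0.00149), and IGLL1, a surrogate light chain whose sequence is close to that of the lambda light chain genes, rose by 0.70 ± 0.17 (0.0375), beside 2.63% of genes called. The CD79A call held in 22 of 23 alternatives and was lost without shNTC replicate 1 (adjusted p 0.0711), and the IGLL1 call held in 12 of 23 (adjusted p from 0.00893 to 0.451), being lost without any 1 shMBD2 array, without shNTC replicate 1 and without shMS4A1 hairpin B or C. The IGLL1 call was also lost with hairpin means, with no label set block, with no detection filter and with no intensity trend. CD79A read 11.58, 11.25, 11.19 and 11.33 on the shMBD2 arrays and 12.38 and 12.04 on shNTC, which do not overlap. Over the 12 genes the shMBD2 median was 0.06, against 0.04 over all genes. In shMS4A1 and in shCREM against shNTC, 0 of 12 passed, with VPREB3 (0.91 ± 0.22) and CD40 (-0.81 ± 0.24), and CR2 (-0.86 ± 0.33) and CD72 (0.93 ± 0.42), at the smallest p-values. Of the 8 listed genes that PAX5 is known to repress, 5 were tested, and 1 was called higher in shCREM than in shMS4A1. It was EMB, an adhesion protein (0.92 ± 0.23, adjusted p = 0.0325). EMB was detected on 5 of 12 arrays, both shCREM arrays among them, and its call held in 13 of 21 alternatives (adjusted p from 0.0245 to 0.249), being lost without shCREM hairpin A, shMS4A1 hairpin A or C, or either shMBD2_C array. The EMB call was also lost with no detection filter, in a fit to set 1 alone and with no background correction before quantile normalization. In the comparisons with shNTC 0 of 5 passed, the shMBD2 values of CCR2 and CD28 being -0.97 ± 0.31 and -0.26 ± 0.23.

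POU2AF1 had the smallest p-value of any member in shMBD2. It read 11.36, 11.38, 11.42 and 11.65 on the shMBD2 arrays, and 10.58 and 11.33 on shNTC. All 4 knockdown arrays lay above both controls, but the higher control was only 0.03 below the lowest of them. The difference was 0.50 ± 0.17 (1.41-fold, adjusted p = 0.148) and did not pass. Its size turned on the control array kept. Without shNTC replicate 2 it was 0.88 (adjusted p = 0.00702) and without shNTC replicate 1 it was 0.12 (adjusted p = 0.892). In set 1, POU2AF1 read 10.02 and 9.96 on shCREM, 10.46, 10.09 and 10.45 on shMS4A1, and 10.41 on shNTC, so that both shCREM arrays were lowest. The difference of shCREM from shMS4A1 was -0.35 ± 0.18 (adjusted p = 0.371). Its partner POU2F2 scattered widely inside groups, at 6.12 and 5.37 on shCREM, 5.80, 5.76 and 5.76 on shMS4A1, 5.75 on shNTC replicate 3, 7.16, 6.45, 6.54 and 6.96 on shMBD2, and 5.89 and 6.89 on shNTC of set 2. The differences were -0.03 ± 0.33 in shCREM against shMS4A1 and 0.39 ± 0.32 in shMBD2 against shNTC (adjusted p = 0.982 and 0.635).

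The ETS factor SPIB was lower than shNTC in all 3 knockdowns, in none of them past the threshold. It read 8.59 and 7.97 on shCREM, 8.63, 8.62 and 9.03 on shMS4A1 and 8.96 on shNTC replicate 3, so that shMS4A1 hairpin C lay above the control. In set 2 it read 9.86, 10.12, 10.04 and 9.78 on shMBD2 against 10.32 and 10.58 on shNTC, groups 0.21 apart. The differences were -0.50 ± 0.19 in shMBD2 (adjusted p = 0.186), -0.20 ± 0.25 in shMS4A1 (0.999), -0.68 ± 0.27 in shCREM (0.568) and -0.48 ± 0.20 for shCREM against shMS4A1 (0.222). With all 3 shNTC arrays as 1 control, ignoring the sets, the shCREM value became -1.67 (adjusted p = 0.0237). SPI1, its relative, was measured by 2 probes. ILMN_2392043 read 8.15 and 8.32 on shCREM, 8.19, 8.55 and 8.40 on shMS4A1, 8.05 on shNTC replicate 3, and 9.19 to 9.61 across set 2. ILMN_1696463 read 8.22 to 8.81 across set 1 and 8.56 to 8.89 across set 2. Neither passed in a planned comparison, the largest value being 0.39 ± 0.24 for ILMN_1696463 in shMS4A1 against shNTC (adjusted p = 0.999).

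BCL6 itself did not differ between shCREM and shMS4A1 past the threshold, with a value of -0.10 ± 0.17 (adjusted p = 0.846, 95% interval -0.45 to 0.25). It read 10.36 and 10.42 on shCREM, 10.68, 10.15 and 10.63 on shMS4A1, and 10.12, the lowest of the set, on shNTC replicate 3. The differences from that array were 0.37 ± 0.21 in shMS4A1 (adjusted p = 0.981) and 0.27 ± 0.22 in shCREM (0.885). In set 2 it read 11.03, 11.05, 10.95 and 11.13 on shMBD2 and 11.18 and 11.61 on shNTC. All 4 knockdown arrays lay below both controls, by 0.04 at the nearest, and the difference was -0.35 ± 0.16 (adjusted p = 0.295).

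BACH2 was near the limit of detection. ILMN_1659943 read 5.28 and 5.50 on shCREM, 5.18, 4.87 and 4.84 on shMS4A1, and 4.38 on shNTC replicate 3, where it was not detected. The fitted differences from that array were 1.00 ± 0.40 in shCREM (adjusted p = 0.57) and 0.58 ± 0.38 in shMS4A1 (0.999). Set against the lowest level of a detected probe on the control array, the mean was 1.84-fold higher in shCREM and 1.37-fold higher in shMS4A1. These are point values that carry no error, and they are not lower limits. Over 21 alternatives the log2 difference from shNTC ran from 0.04 to 1.12 in shCREM and from -0.38 to 0.64 in shMS4A1. In set 2 the shNTC arrays read 6.28 and 5.37 and the shMBD2 arrays 5.14, 5.40, 5.64 and 5.15, which overlap, with a difference of -0.49 ± 0.28 (adjusted p = 0.467). ILMN_1670695 stayed between 4.37 and 4.85 and ILMN_2058468 between 4.26 and 4.49 on all 12 arrays, too close to background to bear on the pattern of the first.

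Of 16 listed genes that BCL6 is known to repress, 13 were tested. In shCREM against shMS4A1, 6 of them were called higher, 0 lower and 7 did not pass, beside the 5.44% of genes called. The median was 0.88 against 0.00 over all genes, and 12 of 13 were positive. The 6 included CD69, an early activation antigen (2.55 ± 0.20, adjusted p = 2.16e-06), the survival protein BCL2 (1.60 ± 0.19, 0.000183), the chemokines CCL3 (2.26 ± 0.33, 0.000767) and CXCL10 (1.91 ± 0.32, 0.00215), and 2 more, among them PRDM1 (1.33 ± 0.33, 0.029). CD69 read 9.55 and 9.83 on shCREM, 7.27, 6.87 and 7.28 on shMS4A1, and 8.87 on shNTC replicate 3, so the control lay between the knockdowns. BCL2 read 7.97 and 8.03 on shCREM, 6.35, 6.39 and 6.47 on shMS4A1, and 7.97 on that control, equal to shCREM hairpin A. CXCL10 read 8.16 and 8.25 on shCREM, 6.63, 5.65 and 6.59 on shMS4A1, and 9.24 on that control, above both knockdowns. As background, these genes also answer to other signals, among them NF-kB, interferon and p53. The count was 5 to 7 over 22 alternatives.

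Set against the control array, calls among these genes were found in shMS4A1. In shMS4A1 against shNTC, 3 of the 13 fell, CXCL10 (-2.95 ± 0.40, adjusted p = 0.00434), CD69 (-1.73 ± 0.26, 0.00933) and BCL2 (-1.57 ± 0.24, 0.0115), and 0 rose, beside 0.175% of genes called. The median was -0.63 against 0.00 over all genes, 11 of 13 being negative, and 2 or 3 fell in each of 22 alternatives. The CD69 call was lost with no label set block (-0.50, adjusted p = 0.511) and that of BCL2 in a fit to set 1 alone (0.0689). In shCREM against shNTC, 0 of 13 passed, beside 0.0073% of genes, with a median of 0.14 and the smallest p-values at CD69 (0.82 ± 0.27) and CCL3 (1.08 ± 0.44). These comparisons share shNTC replicate 3, which read 9.24 for CXCL10, the highest of the 12 arrays. In shMBD2, 2 of 13 fell, beside 2.63% of genes called, BCL2 (-0.92 ± 0.18, adjusted p = 0.0135) and GPR183, a receptor that guides B cell migration (-1.46 ± 0.27, 0.00943). The median was 0.06 against 0.04 over all genes, but -0.67 over the genes whose probes were detected on all 12 arrays and -0.11 with no label set block. Over 23 alternatives that count ran from 0 to 3; it was 0 without shNTC replicate 1, without shMBD2_A replicate 2, with no label set block and with hairpin means, and 1 without shMBD2_C replicate 1.

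**Figure D3:**
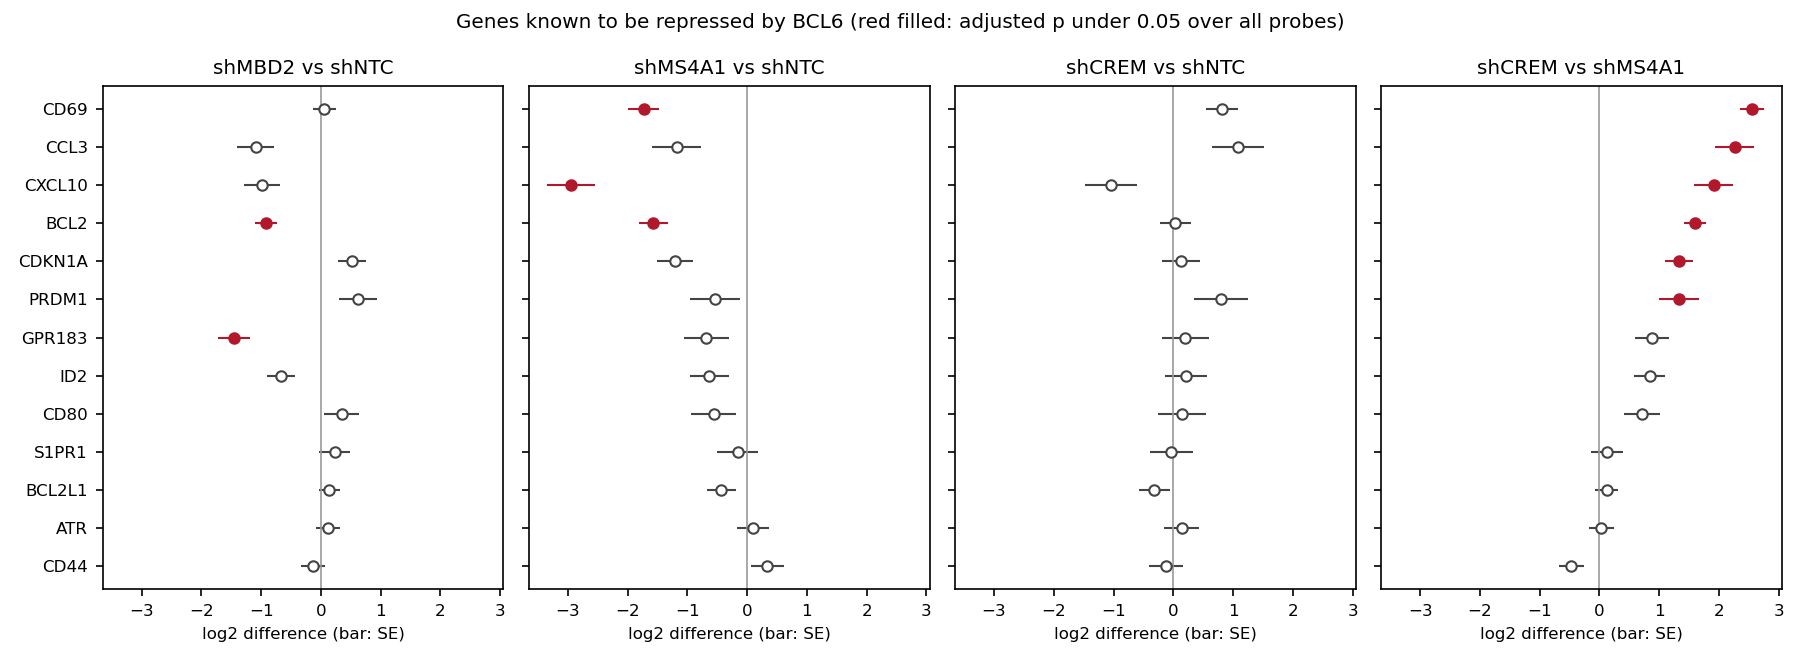
Log2 differences (horizontal axes, bars are SE) of the 13 tested genes known to be repressed by BCL6, in 4 comparisons; red filled points have an adjusted p under 0.05. In shCREM against shMS4A1 6 points are red and all are positive, led by CD69 at 2.55, and in shMS4A1 against shNTC 3 are red and negative.

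Of 5 plasma cell regulators, 2 were called higher in shCREM than in shMS4A1, beside 5.44% of all genes called. They were PRDM1, given above, and ZBTB20, a zinc finger repressor (1.75 ± 0.27, adjusted p = 0.0013). The list median was 0.53. The ZBTB20 call held in 21 of 21 alternatives, and that of PRDM1 in 16 of 21 (adjusted p from 0.00459 to 0.361), being lost without shCREM hairpin A, any 1 shMS4A1 hairpin or shMBD2_A replicate 1. PRDM1 read 7.33 and 6.17 on shCREM, 5.62, 5.05 and 5.59 on shMS4A1, and 5.95 on shNTC replicate 3, so that hairpin A stood above every other array and hairpin B close to the control. ZBTB20 read 6.64 and 6.07 on shCREM, 4.67, 4.61 and 4.52 on shMS4A1, and 5.49 on shNTC replicate 3. In the comparisons with shNTC, 0 of 5 passed, ZBTB20 standing at -0.94 ± 0.26 in shMBD2 (adjusted p = 0.0679), -0.88 ± 0.34 in shMS4A1 (0.687) and 0.87 ± 0.37 in shCREM (0.596). Over 22 alternatives the count in shCREM against shMS4A1 ran from 0 to 3. The plasma cell marker JCHAIN was detected on 12 of 12 arrays, and the summed linear level of the 5 plasma cell markers was lowest on shCREM hairpin A (3490) and highest on shMS4A1 hairpin B (7060) in set 1, with shCREM hairpin B inside the range of the shMS4A1 arrays, and their part in the result was not tested.

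Among 23 other B lineage regulators, 21 were tested. In shCREM against shMS4A1, 4 were called lower and 0 higher. They were MYB, a progenitor and proliferation factor (-1.36 ± 0.17, adjusted p = 0.000269), ID3, an inhibitor of E proteins (-1.11 ± 0.22, 0.00654), NFATC1, a calcium-responsive factor (-0.85 ± 0.21, 0.0278), and TCF3, an E protein (-0.73 ± 0.16, 0.0129). Beside this, 5.44% of all genes were called. The list's median was 0.06, and 2 to 4 were called lower over 22 alternatives. MYB was called lower in 22 of them and ID3 in 21 (not without shCREM hairpin B). TCF3 was called in 18 (not without shCREM hairpin A or shMS4A1 hairpin B or C) and NFATC1 in 17 (not without any 1 shCREM or shMS4A1 hairpin). TCF3 was also not called with no intensity trend. NFATC1 read 7.10 and 6.88 on shCREM, 7.90, 7.90 and 7.73 on shMS4A1, and 7.23 on shNTC replicate 3. The control thus lay between the knockdowns for NFATC1. MYB read 8.87 and 8.33 on shCREM, 9.97, 9.78 and 10.12 on shMS4A1, and 9.77 on shNTC replicate 3, so both shCREM arrays were below the control. The MYB value against that array was -1.17 ± 0.23 (adjusted p = 0.108). In shMBD2, FLI1, an ETS factor, fell by 0.93 ± 0.21 (adjusted p = 0.0294), reading 6.88, 7.16, 6.68 and 6.54 against 7.84 and 7.65, 1 of 21 beside 2.63% of genes called. That call held in 16 of 23 alternatives (adjusted p from 0.0101 to 0.339) and was lost without any 1 shMBD2 array or shNTC replicate 1. The FLI1 call was also lost with hairpin means and with no label set block. In shMS4A1 against shNTC 0 of 21 passed, with NFATC1 at 0.62 ± 0.27 (adjusted p = 0.789) and the probe annotated to the read-through gene BORCS8-MEF2B, listed for MEF2B, at 0.59 ± 0.26 (0.814).

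The members differed most between the 2 control sets, a comparison added after the data were seen. With shNTC replicates 1 and 2 against replicate 3, all 11 tested probes were higher, 3 of them called, beside 4.08% of all probes: SPIB by 1.49 ± 0.27 (adjusted p = 0.00421), BCL6 by 1.28 ± 0.22 (0.00374) and SPI1 ILMN_2392043 by 1.24 ± 0.23 (0.0058). The median was 0.54, against 0.01 over all probes. BACH2 ILMN_1659943, undetected on replicate 3 alone, was higher by 1.44 ± 0.40 and was not called. That replicate is also the control behind the BACH2 differences in shCREM and shMS4A1 given above. For EBF1 (0.01 ± 0.27) and IRF4 (0.15 ± 0.35), shNTC replicates 1 and 2 lay on either side of replicate 3. The calls held in 19 of 19 alternatives for each of the 3. The other SPI1 probe differed by 0.40 ± 0.25 (adjusted p = 0.459), so the probes of that gene disagree in size. Over all arrays, the 6 of set 2 lay above the 6 of set 1, without overlap, for POU2AF1, SPIB, SPI1 ILMN_2392043 and BCL6, 4 of 11, beside 10.1% of all probes in either direction. Set 2 also had the lower raw intensity, whose part in the result was not tested. What separates the sets is not given in the labels, so set and any batch behind it cannot be told apart.

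No member followed IRF8 closely over the arrays. After each set's mean was taken away, the 3 genes most like IRF8 over the 12 arrays were ZNF383 (r = 0.91), ZC3H8 (0.90) and CRIPT (0.89), given as a description. Among the members, r with IRF8 was 0.47 for both EBF1 and BACH2 and -0.57 for POU2AF1. The strongest relations between members, by the same measure, were -0.78 for POU2AF1 and BACH2, -0.66 for POU2F2 and BACH2 and 0.63 for POU2AF1 and POU2F2. These arrays share their set, their hairpins and their normalization, and with 12 of them such values scatter widely. In set 2, shNTC replicate 1 was lowest for POU2AF1 (10.58) and POU2F2 (5.89) and highest for BACH2 ILMN_1659943 (6.28). It also had the fewest detected probes of all arrays (18652). How far the relations among POU2AF1, POU2F2 and BACH2 rest on that array was not tested.

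**Figure D4:**
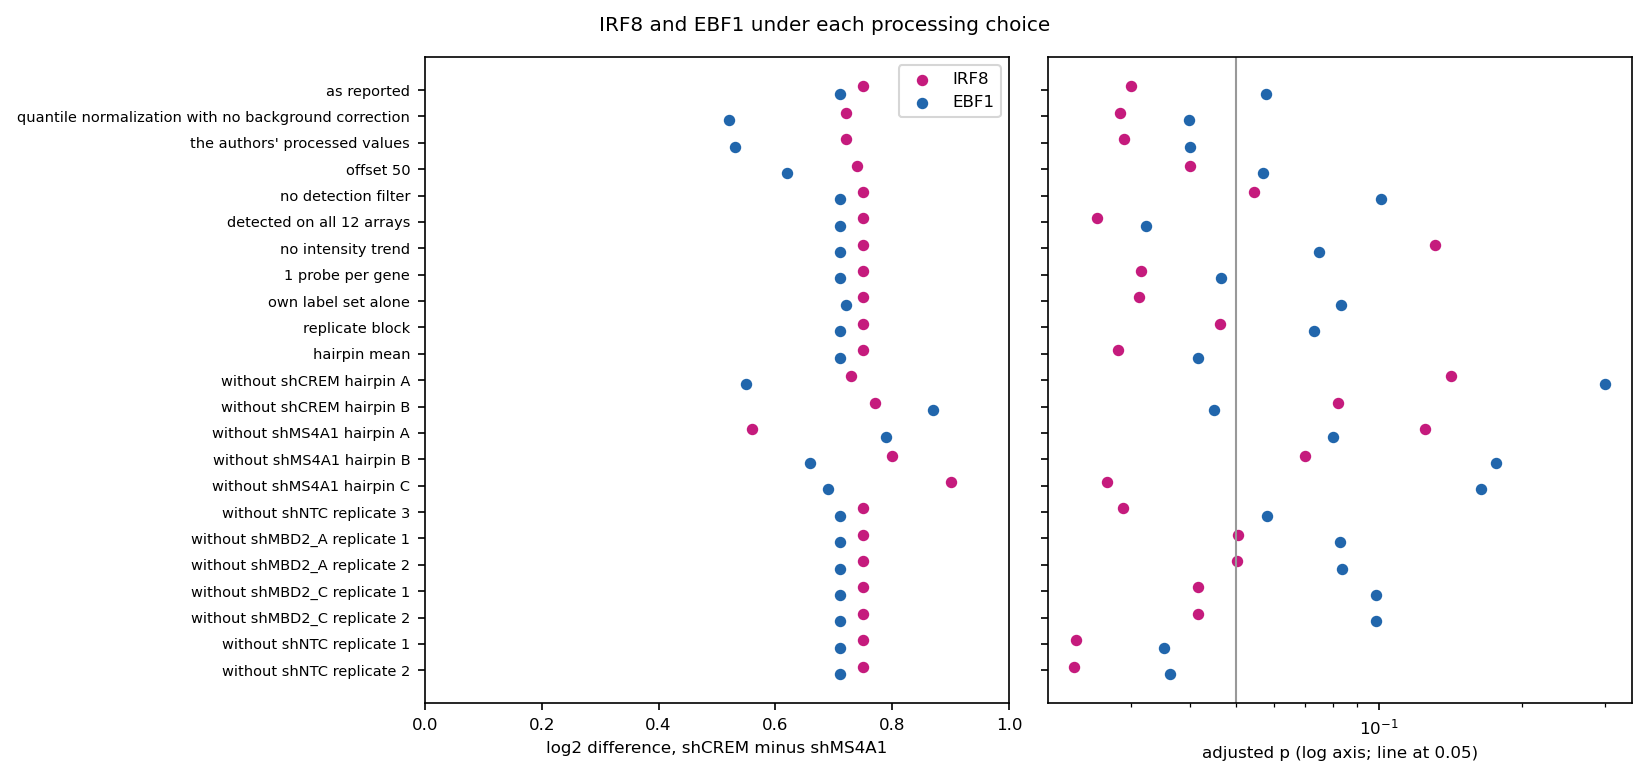
Log2 difference of shCREM from shMS4A1 (left panel) and its adjusted p on a log axis (right panel) for IRF8 and EBF1 as reported and under each of 22 processing choices. The differences stay between 0.52 and 0.90, while the adjusted p crosses 0.05 for both genes.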

How the data were processed

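The authors deposited a table of raw intensity values with, per the file headers, a detection p-value for each probe and array, and a table of processed intensity values normalized between arrays, whose distributions nearly agree within each label set and differ between the sets. The tables name probes differently and were joined by each probe's rank profile over the 12 arrays. All 48107 probes matched one to one, with no second probe within 2 times the distance of the match. Symbols came from the array annotation (30113 probes with 1 symbol, 8 with several, 17986 with none).

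Background correction and quantile normalization used neqc (limma 3.58.1, R 4.3.3, offset 16). Probes with detection p under 0.05 on at least 2 arrays were kept (27789 probes, 13702 genes by the highest-mean probe). A limma model (lmFit, then eBayes with an intensity trend) was fitted to all 12 arrays, group by label set, two-sided, with Benjamini-Hochberg adjustment over all 27789 probes and a threshold of 0.05. Errors after ± are standard errors. Precision is limited by the number of arrays. Named were all members, the called members or the smallest p-values of each comparison, up to 4 called genes of a list, or its 2 smallest p-values, and the 3 genes most like a called member. Members, lists and tests were chosen with earlier results of these data known. Alternatives changed normalization, filter, variance trend, probe unit, set block, replicate block and single arrays.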

Additional observations from a re-analysis of the deposited data

Results flagged for a closer look

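IRF8 differed between shCREM and shMS4A1, which share 1 control array, by 0.75 on the log2 scale (shCREM minus shMS4A1), a difference tested directly in the fit (adjusted p = 0.03). EBF1 was above the control on both shCREM arrays and below it on all 3 shMS4A1 arrays, 0.71 apart, and the test of that difference did not pass (adjusted p = 0.0578). SPI1 ILMN_2392043 was above the mean of shNTC replicates 1 and 2 on both shMBD2_A arrays and below it on both shMBD2_C arrays, 0.24 apart, and that difference did not pass either (adjusted p = 1). Of these arrays, shMBD2_A replicate 2 (9.37) and both of shMBD2_C (9.24 and 9.26) lay between the 2 controls (9.19 and 9.38). The other SPI1 probe, ILMN_1696463, showed no such split, with shMBD2_A minus shMBD2_C at -0.04 ± 0.21. On the 4 shMBD2 arrays, none of the 11 tested member probes had an array that stood apart from the others by Dixon's criterion at the 95% level.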

How the results depend on the processing

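The number of member probes called in shCREM against shMS4A1, 1 as reported (IRF8), was 2 (IRF8 and EBF1) with no background correction before quantile normalization, with the authors' processed values, with probes detected on all 12 arrays, with 1 probe per gene and with hairpin means, 0 with no detection filter or no intensity trend, and 0 to 2 when single arrays were left out. In shMBD2 against shNTC it was 0 to 1 when single arrays were left out, and in shCREM against shNTC it was 1 (SPIB) with no label set block; the causes were not tested. Among all probes, the 582 calls of shMBD2 against shNTC became 376 with no filter, 293 with no trend, 76 with no set block, 28 with hairpin means and 62 to 1593 without single arrays. The 36 of shMS4A1 against shNTC became 155 with no filter, 21 with probes detected on all 12 arrays, 16 with no trend, 20 in its own set alone, 298 with no set block and 10 to 58 without single arrays. The 3 of shCREM against shNTC became 6 with no background correction or with processed values, 10 at offset 50, 72 with no filter, 1 with probes detected on all 12 arrays, 1 probe per gene or its own set alone, 363 with no set block and 2 to 176 without single arrays. The 1136 of shCREM against shMS4A1 became 602 with no trend and 545 to 1402 without single arrays. With the replicate block, member calls stayed at 0 in shMBD2, shMS4A1 and shCREM against shNTC and at 1 in shCREM against shMS4A1 (IRF8, adjusted p = 0.0462), beside 460, 26, 2 and 948 of all probes. Same-numbered arrays of set 2 shared no deviation from their group means (r of -0.06 to -0.01 over probes), so the numbers were not taken as pairs. No called value changed sign. A fit that leaves 1 array in a group assumes that it varies like the other groups. BACH2, PAX5 and IRF4 lie near background, which limits what their probes can show.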
